A study of Mus musculus with 3 samples.

Results

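Kupffer-like nuclei were examined in single-nuclei RNA sequencing (sNuc-Seq) of frozen mouse liver. A nucleus was counted as Kupffer-like when unique molecular identifiers (UMIs, each standing for 1 captured RNA molecule) of at least 2 of 11 marker genes made up at least 0.1% of its UMIs. The markers were Clec4f, Timd4, Vsig4, Cd163, Marco, Cd5l, Adgre1, Csf1r, C1qa, C1qb and C1qc. A nucleus with more than 1 of the lipid-associated macrophage genes Gpnmb, Atp6v0d2, Mmp12, Chst11 and St18 was left out, as was one with more than 1 of Stab2, Ptprb, Kdr, Reln, Dcn and F13a1, which belong to endothelial, stellate and monocyte-derived cells. The members were thus chosen by measured UMIs of these 22 genes, so that what those genes show is a description. Of 28336 nuclei with 200 to 5000 genes and at most 5% mitochondrial UMIs, 1234 met this rule.
The samples were the livers of 1 male C57BL/6J mouse on a normal diet (ND), labelled normal, and of 2 male mice labelled as having fibrosis related to metabolic dysfunction-associated steatohepatitis (STZ-HFHC 1 and STZ-HFHC 2). The STZ-HFHC model starts with a subcutaneous injection of 0.2 mg streptozocin, a toxin of the insulin-producing islet cells, at 3 days of age, followed by a high-fat, high-cholesterol diet from 4 weeks of age. The age of the sequenced mice is not given in the sources used here. About 100 mg of frozen liver was used per mouse, with 1 library each, so that the spread between ND mice is unknown: values are given per mouse with 95% intervals that cover counting error only.
Kupffer cells are the resident macrophages of the liver. They sit in the sinusoids, where they take up bacteria, debris, aged red blood cells and lipoproteins from the blood, and they are kept in place by signals from endothelial and stellate cells and hepatocytes. Clec4f, a galactose-binding lectin, is made almost only by mouse Kupffer cells, and Timd4, a receptor for phosphatidylserine on dying cells, marks those that have resided in the liver for long. In steatohepatitis, cells that arise from monocytes can take up residence beside them, and lipid-laden macrophages appear that carry Gpnmb, Trem2 and Cd9.
The 1234 nuclei comprised 104 from ND and 675 and 455 from the STZ-HFHC mice, which held 235564, 1195653 and 868831 UMIs. The median nucleus held 1334, 1522 and 1609 UMIs, below the median of 4068, 3015 and 4027 over all nuclei kept. The middle nucleus carried 3 marker genes in each mouse, with marker UMIs at 0.272%, 0.272% and 0.223% of its total. Nuclei with exactly 2 marker genes made up 37.5%, 42.7% and 43.7%, and those with 5 or more 13.5%, 15.7% and 12.5%. In 18.3%, 23.3% and 28.8% of the nuclei the call rested on only 2 marker UMIs. Nuclei just inside the 0.1% limit (up to 0.12%) numbered 11, 34 and 41, and those just outside it (0.08% to 0.1%) numbered 15, 31 and 40. Both sides had a median of 2 marker UMIs in the STZ-HFHC mice, whereas in ND it was 4 inside and 2 outside. Between 29 and 32 barcodes were shared by each pair of libraries, at most 0.323% of either. The sample labels give the ND library another code than both STZ-HFHC libraries, and batches of libraries and the conditions cannot be told apart.
The label was checked on 20 other Kupffer cell genes that the rule did not use. Of these, 14 had at least 50 UMIs over the 3 mice. Itga9, an integrin chain, stood at 628 CPM in ND and 835 and 701 CPM in the STZ-HFHC mice, against 24.7, 47.2 and 45.6 CPM in hepatocyte-like nuclei. Slc40a1, which encodes the iron exporter ferroportin, stood at 471 CPM in ND and 609.7 and 575 CPM in the STZ-HFHC mice, against 88.1, 109 and 103 CPM in hepatocyte-like nuclei. Of the 14 genes, 12 lay above the hepatocyte-like level in every mouse, the exceptions being Paqr9 and Gfra2 in ND, and 13 lay above the endothelial-like level, Gfra2 in ND excepted. The endothelial-like nuclei also held hepatocyte genes near the hepatocyte-like level, as given below. Other macrophages were not part of this check. Folr2, Lyve1, Fcna, Xlr, Cd207 and Mmd2 had fewer than 50 UMIs in all.
The first comparison asked what share of the liver's nuclei was Kupffer-like in each mouse. It was 1.22% in ND (Clopper-Pearson 95% interval 1.00 to 1.48), against 7.57% (7.03 to 8.13) and 4.17% (3.80 to 4.56) in the first and second STZ-HFHC mouse. The 3 intervals did not overlap, and the shares of the STZ-HFHC mice were 6.18 and 3.40 times that of ND, a mean of 4.79 ± 1.96 (SD, n = 2). The STZ-HFHC mice differed from each other by more than counting error. Among nuclei that were not hepatocyte-like the shares were 2.00%, 8.89% and 5.23%.
All nuclei that passed the 11-marker part of the rule, whatever their other genes, numbered 216, 1704 and 1161. Kupffer-like nuclei made up 48.1%, 39.6% and 39.2% of these, so that by this denominator the STZ-HFHC mice lay below ND, at 0.818 times its share on average, with overlapping intervals of 41.3 to 55.0, 37.3 to 42.0 and 36.4 to 42.1. Nuclei with 2 or more of the lipid-associated genes and at most 1 other barred gene, called lipid-associated-like below, numbered 0 in ND, which allows a share of up to 0.0353%, and 209 and 68 in the STZ-HFHC mice. The rest carried 2 or more of Stab2, Ptprb, Kdr, Reln, Dcn and F13a1.

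**Figure D1:**
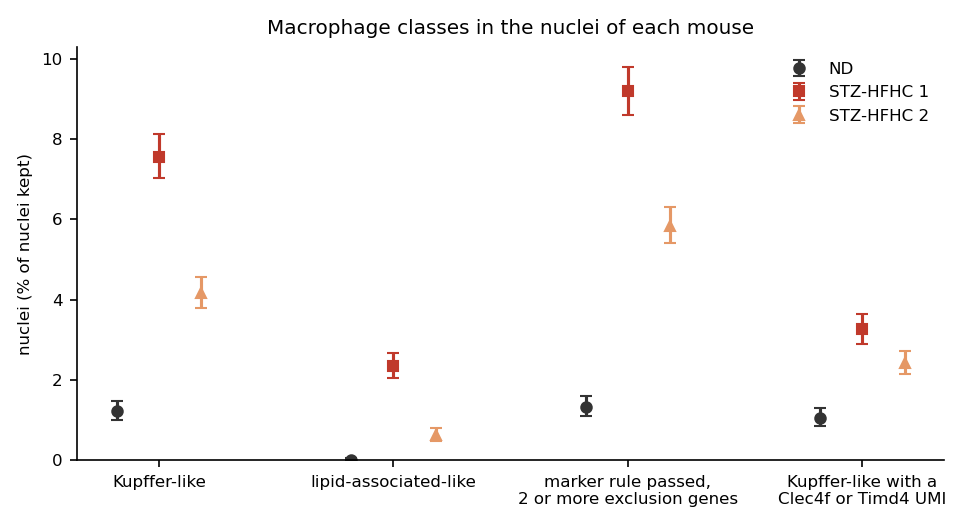
Share of the nuclei kept that fell in each macrophage class, in percent, for each mouse (points) with Clopper-Pearson 95% intervals (bars). Kupffer-like nuclei were at 1.22% in the ND mouse and 7.57% and 4.17% in the STZ-HFHC mice, and the subset with a Clec4f or Timd4 UMI was at 1.05%, 3.26% and 2.42%.

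The markers that chose the nuclei did not keep the same mix. Levels are given as CPM, the UMIs of a gene scaled to a total of 1000000, over the summed Kupffer-like nuclei of a mouse. The 11 markers together made up 2411 CPM in ND and 3161 and 2464 CPM in the STZ-HFHC mice. Their sum is bounded below by the rule, so it and the values that follow are a description.
Of the 11 markers, Clec4f, Timd4, Vsig4, Cd163, Cd5l and Adgre1 were given as the markers of the label, and their sum was 2067 CPM in ND and 2553 and 2014 CPM in the STZ-HFHC mice. It did not move one way in both STZ-HFHC mice, and 3 of the 6 were highest in ND and 3 lowest. Clec4f (chr6:83644542-83656187, GRCm38) stood at 853 CPM in ND and 331 and 375 CPM in the STZ-HFHC mice. The ND interval, 739 to 979.7, did not overlap 299 to 365 or 336 to 418, and the log2 ratio to ND was -1.28 ± 0.13 (mean and SD over the 2 STZ-HFHC mice). Cd163 (chr6:124304656-124330527), the receptor for haemoglobin bound to haptoglobin, stood at 140.1 CPM in ND and 46.0 and 74.8 CPM in the STZ-HFHC mice (the latter a ratio below 2-fold). Its intervals were 96.4 to 197, 34.7 to 59.9 and 57.7 to 95.4, so that ND stood apart by little. Timd4 (chr11:46810800-46844332) stood at 242 CPM in ND and 139.7 and 181 CPM in the STZ-HFHC mice. For Timd4 the interval of ND, 183 to 314, overlapped that of STZ-HFHC 2, 154 to 211. All 3 genes had their highest level in ND. Clec4f passed the rule of size given below, but not under 5 of the 16 alternatives: its log2 ratio was -0.63 with each nucleus thinned to 1000 UMIs before selection, -0.97 at a marker share of 0.05%, -0.93 with 3 marker genes, -0.75 without nuclei that had an exclusion gene and -0.55 among nuclei with a Clec4f or Timd4 UMI. For ratios to ND and gene counts, thinning served only to choose the nuclei, whose full counts were then summed. Of the 16 alternatives, 2 leave out a STZ-HFHC mouse and so cannot lose a call.
Cd5l, Adgre1 and Vsig4 had their lowest level in ND. Cd5l (chr3:87357881-87371073), a secreted inhibitor of macrophage death that binds lipids, stood at 250.5 CPM in ND and 1119 and 573 CPM in the STZ-HFHC mice, with a log2 ratio of 1.67 ± 0.68. It held the most UMIs of the 11 in both STZ-HFHC mice, whereas Clec4f did in ND. With DESeq2 size factors it no longer passed the rule of size. Adgre1 (chr17:57358691-57483527), which encodes the F4/80 antigen, stood at 391 CPM in ND and 619.7 and 514 CPM in the STZ-HFHC mice, and Vsig4 (chrX:96247203-96293438), the receptor that captures complement-coated bacteria, at 191 CPM in ND and 297 and 296 CPM in the STZ-HFHC mice. Both ND intervals lay below those of STZ-HFHC 1, but for Adgre1 that of ND (315 to 479) overlapped that of STZ-HFHC 2 (468 to 564). The other 5 markers are less particular to Kupffer cells. Csf1r, the receptor for the growth factor that macrophages depend on, stood at 183 CPM in ND and 207 and 198 CPM in the STZ-HFHC mice, and these 3 intervals overlapped. The subunits of complement C1q had few UMIs in ND (9 to 11 per gene). C1qa stood at 38.2 CPM in ND and 125 and 73.7 CPM in the STZ-HFHC mice, C1qb at 46.7, 114 and 100.1 CPM and C1qc at 42.5, 109.6 and 43.7 CPM in the same order of mice. Marco, a scavenger receptor, stood at 34.0, 52.7 and 34.5 CPM, with overlapping intervals.

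**Figure D2:**
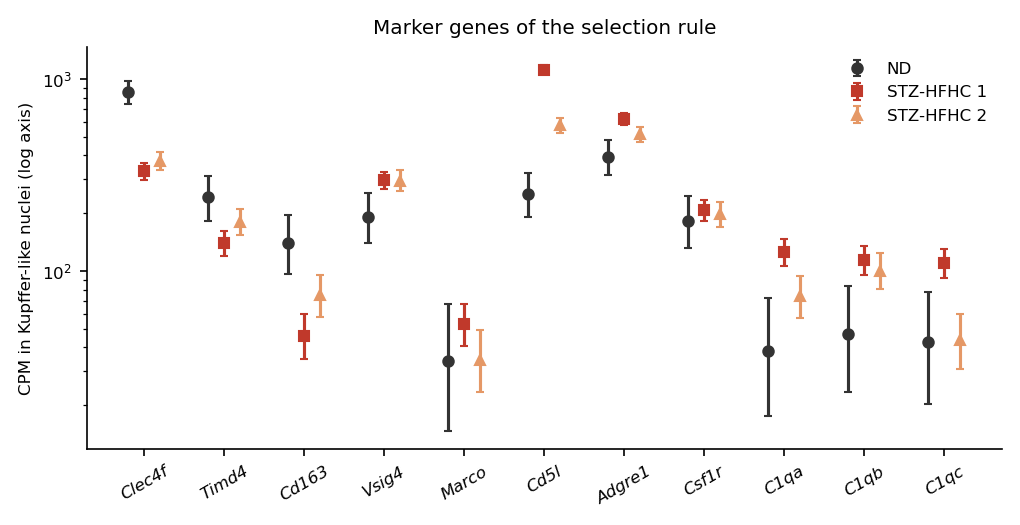
Level of each of the 11 marker genes in the summed Kupffer-like nuclei of each mouse, in CPM on a log axis, with exact Poisson 95% intervals (bars). Clec4f stood at 853 CPM in ND and at 331 and 375 CPM in the STZ-HFHC mice, and Cd5l stood at 250.5, 1119 and 573 CPM.

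Nuclei could also carry UMIs of the genes that the rule limits to 1 per nucleus. Of the lipid-associated genes, Gpnmb stood at 0, 125 and 77.1 CPM in ND, STZ-HFHC 1 and STZ-HFHC 2, Chst11 at 0, 41.0 and 25.3 CPM, St18 at 0, 53.5 and 16.1 CPM, Atp6v0d2 at 4.25, 31.8 and 9.21 CPM and Mmp12 at 4.25, 106 and 33.4 CPM. Of the others, Stab2, an endothelial receptor for hyaluronan, stood at 318, 238 and 292 CPM, Ptprb at 84.9, 162 and 174 CPM, Kdr at 0, 5.85 and 9.21 CPM, Reln at 4.25, 37.6 and 43.7 CPM, Dcn at 21.2, 27.6 and 15.0 CPM and F13a1, a monocyte gene, at 4.25, 24.3 and 19.6 CPM. Atp6v0d2, Mmp12, Reln and F13a1 had 1 UMI each in ND, and Gpnmb, Chst11, St18 and Kdr had none.
Because the nuclei differed in depth, the share with a UMI of a gene was also computed after each nucleus was thinned to 1000 UMIs, which left 77, 584 and 408 nuclei. Clec4f was then seen in 58.4% of ND nuclei (95% interval 46.6 to 69.6), 23.6% of STZ-HFHC 1 (20.2 to 27.3) and 31.4% of STZ-HFHC 2 (26.9 to 36.1). Before thinning the shares were 77.9%, 36.7% and 47.9%. Hepatocyte-like nuclei gave 1.86%, 1.0% and 1.55% at the same depth. By definition these carry at most 1 of the 11 markers, so that their low shares of marker genes are partly set by that choice. Cd5l was seen in 22.1%, 61.1% and 39.7% of the thinned Kupffer-like nuclei, against 0.847%, 5.83% and 2.59% of hepatocyte-like ones. Timd4 was seen in 24.7%, 10.6% and 14.2%, against at most 0.638% of hepatocyte-like nuclei. Csf1r was seen in 22.1%, 21.6% and 19.6%, which did not differ beyond their intervals. The order of the mice was thus the same in shares of nuclei and in CPM for Clec4f, Cd5l and Timd4.
A UMI of Clec4f or Timd4 was found in 85.6% of Kupffer-like nuclei of ND (77.3 to 91.7), 43.1% of STZ-HFHC 1 (39.3 to 46.9) and 58.0% of STZ-HFHC 2 (53.3 to 62.6). As shares of all nuclei kept, those with such a UMI were 1.05%, 3.26% and 2.42%, a mean ratio to ND of 2.71 ± 0.57 (SD, n = 2). The 384 and 191 STZ-HFHC nuclei without it were compared with the 291 and 264 that had it. Cd5l was at 1045 CPM without and 1203 with such a UMI in STZ-HFHC 1, and at 588 and 565 in STZ-HFHC 2. Csf1r was at 240.5 (204 to 282) without and 169.8 (137 to 208) with it in STZ-HFHC 1, and at 261 (207 to 324) and 162 (131 to 199.6) in STZ-HFHC 2. The summed monocyte genes stood at 266 (227 to 309) against 148 (118 to 184) in STZ-HFHC 1, and at 204 (157 to 259.9) against 95.6 (71.6 to 125) in STZ-HFHC 2. The list holds F13a1, which the selection rule limits. Without F13a1 the sums were 229 (194 to 269.9) against 138 (109 to 172) in STZ-HFHC 1, and 153 (113 to 202) against 93.8 (70.1 to 123) in STZ-HFHC 2. The intervals lay apart in STZ-HFHC 1 and overlapped in STZ-HFHC 2. Gfra2, a receptor chain for neurturin, was at 40.9 against 127 CPM in STZ-HFHC 1 and 47.7 against 68.5 in STZ-HFHC 2, with intervals apart in STZ-HFHC 1 alone. Among the nuclei with such a UMI alone, Timd4 stood at 267, 299 and 283 CPM and Clec4f at 942, 708 and 588 CPM in ND, STZ-HFHC 1 and STZ-HFHC 2, levels that depend on the choice of nuclei by these same genes. Cd5l stood at 229.5, 1203 and 565 CPM among them, Abcg1, a cholesterol exporter, at 32.8, 304 and 198 CPM, and Il1b, a cytokine, at 141, 35.8 and 12.6 CPM. The mean log2 ratios to ND were 1.83, 2.81 and -2.68 for Cd5l, Abcg1 and Il1b, beside 1.67, 2.99 and -2.23 over all Kupffer-like nuclei. These 2 sets were split by UMIs of the nuclei themselves, and no test was made. Nuclei without a Clec4f or Timd4 UMI had to pass on the other 9 markers, so that their levels of Csf1r, Cd5l and the rest of these 9 are tied to the split.
RNA of other cell types was present in the Kupffer-like nuclei and differed between the mice. The 12 hepatocyte genes, led by Cps1 in each mouse, summed to 19931 CPM in ND and 8631 and 12178 CPM in the STZ-HFHC mice, against 23328, 16117 and 17104 CPM in hepatocyte-like nuclei. Kupffer-like nuclei of ND thus held 0.854 times the hepatocyte-like level, and those of the STZ-HFHC mice 0.536 and 0.712 times. Endothelial-like nuclei held these 12 genes at 21836, 15177 and 16963 CPM, close to the hepatocyte-like level. The 10 endothelial genes, led by Stab2, summed to 764 CPM in ND and 1038 and 1152 CPM in the STZ-HFHC mice, against 1684, 1886 and 1479.9 CPM in endothelial-like nuclei, with Kdr and Flt4 at 0 in ND. The 10 stellate and fibroblast genes, led by Ntm, summed to 59.4 CPM in ND and 176 and 195 CPM in the STZ-HFHC mice, with Lrat, Pdgfrb, Col1a1, Col3a1 and Des at 0 in ND and Des at 0 in STZ-HFHC 2. The 7 cholangiocyte genes, led by Pkhd1, summed to 106 CPM in ND and 139 and 191 CPM in the STZ-HFHC mice, with Krt19 at 0 in every mouse, Epcam at 0 in ND and STZ-HFHC 1, and Krt7 and Cftr at 0 in ND. The part of this RNA in the results that follow was not tested, but the hepatocyte-like level stands beside many of the genes that passed, and a second count was restricted to genes above the level of hepatocyte-like and endothelial-like nuclei.
Markers of other immune cells were also summed. The 8 monocyte genes, led by Plac8, summed to 38.2 CPM in ND and 211 and 135 CPM in the STZ-HFHC mice, with Ccr2, Ly6c2 and Chil3 at 0 in ND and Ly6c2 at 0 in STZ-HFHC 2. In hepatocyte-like nuclei these genes summed to 10.9, 63.6 and 28.6 CPM. Ccr2, the receptor that brings monocytes out of the marrow, was at 0, 38.5 and 19.6 CPM in the same order. A UMI of any of these genes was present in 7.69%, 22.1% and 17.6% of the nuclei. The 6 dendritic cell genes summed to 76.4 CPM in ND and 197 and 177 CPM in the STZ-HFHC mice, led by Zbtb46 in ND and by Clec9a in both STZ-HFHC mice, with Flt3, Xcr1 and Cd209a at 0 in ND. The 5 neutrophil genes summed to 59.4 CPM in ND and 79.5 and 63.3 CPM in the STZ-HFHC mice, nearly all of it Csf3r, with Retnlg and Mmp8 at 0 in every mouse. The 8 T and NK cell genes summed to 34.0 CPM in ND and 240.0 and 307 CPM in the STZ-HFHC mice, close to the 40.4, 254 and 304 CPM in hepatocyte-like nuclei, with Cd3e, Gzma, Ncr1 and Il7r at 0 in ND. The 6 B cell genes summed to 441 CPM in ND and 513 and 546 CPM in the STZ-HFHC mice, mainly Bank1 at 318, 443 and 367 CPM, with Cd79a and Ms4a1 among those at 0 in ND. Hepatocyte-like nuclei, limited to 1 B cell gene and 1 T or NK cell gene each by definition, held 25.4, 45.0 and 49.1 CPM of the B cell genes. Lipid-associated-like nuclei held 384 and 553 CPM in the STZ-HFHC mice. In bulk sums such as these, more cells of a type and more RNA per cell cannot be told apart.
The second comparison asked which genes differed between ND and both STZ-HFHC mice within Kupffer-like nuclei. A gene passed the rule of size when it had at least 50 UMIs in all, its CPM ratio to ND was at least 2-fold, upward in both STZ-HFHC mice or downward in both (0.5 added to each count), and the ND interval overlapped neither of theirs. Of 6833 genes with 50 UMIs, 335 were higher (4.9%) and 303 were lower (4.43%) in the STZ-HFHC mice, 9.34% in all. With TMM scaling in place of totals the counts were 219 higher and 404 lower, and with DESeq2 size factors 206 and 425. The median log2 ratio over all genes was 0.14 by totals, -0.02 by TMM and -0.05 by size factors, and directions below are those by totals. When the level in each mouse on the higher side also had to be at least 2 times that in hepatocyte-like and endothelial-like nuclei, 191 genes were higher (2.8%) and 17 lower (0.249%). Without STZ-HFHC 2, and so with 1 condition less, the counts were 705 higher and 535 lower, and 429 and 26 above background. Of the higher and lower genes past the rule of size, 206 and 214 were also past it when only nuclei with a Clec4f or Timd4 UMI were summed.

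**Figure D3:**
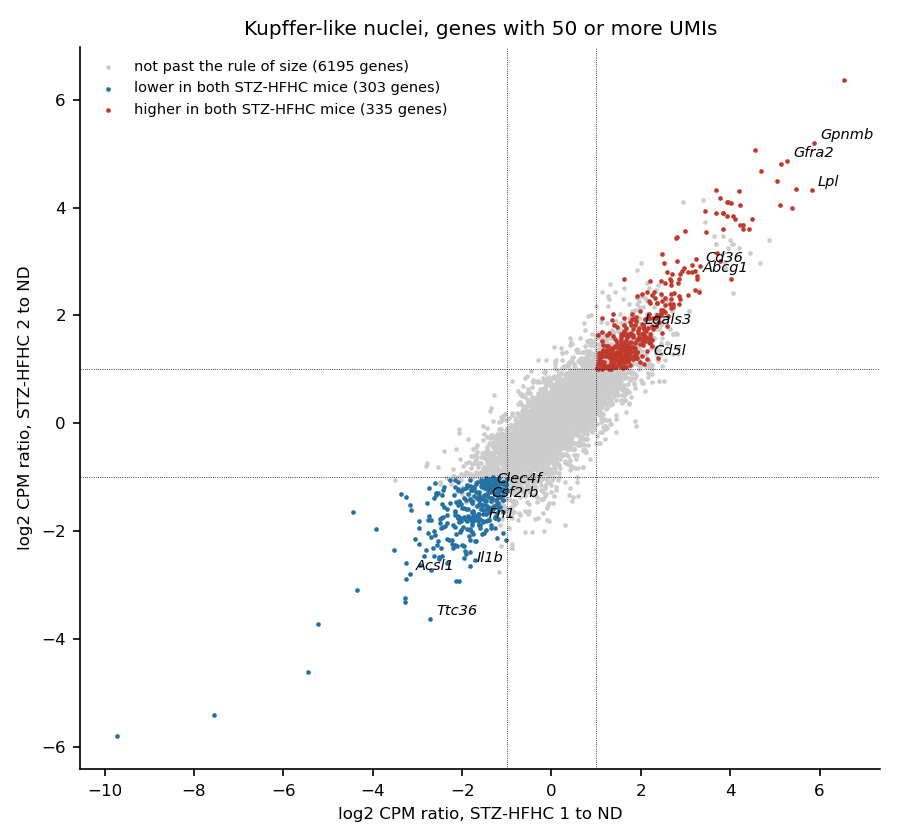
Log2 CPM ratio to ND of each of 6833 genes in STZ-HFHC 1 (x axis) and STZ-HFHC 2 (y axis), with 0.5 added to each count and dotted lines at a 2-fold change. The 335 higher and 303 lower genes past the rule of size are coloured, and both axes share the single ND library.

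The 10 genes with the largest difference upward above the background of other nuclei included 9 without a single UMI in ND. Gpnmb, a glycoprotein of lysosome-rich macrophages and 1 of the 5 genes the rule limits, was at 0 in ND and at 125 and 77.1 CPM in STZ-HFHC, at least 9.79-fold and 6.06-fold higher against a floor of 3 UMIs in the ND library. Gfra2 (chr14:70890120-70979838) was at 0, 81.1 and 61.0 CPM, at least 6.37-fold and 4.79-fold higher. Its level in hepatocyte-like nuclei was 0.154, 2.17 and 1.84 CPM, so that little of it was in the background. After thinning, Gfra2 was seen in 0 of 77 ND nuclei, which allows a share of up to 3.90% (3 counts), and in 6.68% and 5.64% of STZ-HFHC nuclei. Sirpb1b, a member of the signal regulatory protein family, was at 0, 74.4 and 58.7 CPM, and Sorl1, a sorting receptor of endosomes, at 0, 54.4 and 54.1 CPM. In hepatocyte-like nuclei Gpnmb stood at 0.231, 24.4 and 7.64 CPM, Sirpb1b at 0.693, 9.37 and 3.13 CPM and Sorl1 at 2.0, 12.9 and 10.4 CPM. Hepatocyte-like nuclei have at most 1 gene of each other type by definition, which may limit their Gpnmb. Endothelial-like nuclei held more Gpnmb in the STZ-HFHC mice, at 0, 52.4 and 19.3 CPM in ND, STZ-HFHC 1 and STZ-HFHC 2. The Kupffer-like level in STZ-HFHC 1 was 2.38 times the endothelial-like one, little above the limit of 2 times.
Myo5a, an actin motor that carries vesicles, was at 0, 93.7 and 42.6 CPM, against 2.93, 28.9 and 10.3 CPM in hepatocyte-like nuclei. Selplg, the ligand by which leukocytes roll on selectins, was at 0, 38.5 and 41.4 CPM, and Slamf7, a receptor of immune cells, at 0, 31.8 and 29.9 CPM. Twf2, an actin-binding protein, and Napepld, an enzyme that makes N-acylethanolamine lipids, reached 29.9 to 35.1 CPM. In hepatocyte-like nuclei Selplg, Slamf7, Twf2 and Napepld stood at 3.59 to 12.2 CPM in the STZ-HFHC mice. At these low levels 1 or 2 further UMIs in ND would change the bounds. Sorl1, Myo5a, Selplg, Twf2, Napepld and Slamf7 no longer passed the rule when only nuclei with a Clec4f or Timd4 UMI were summed. Fewer UMIs were left there, ND was at 0 there too for all 6, and the STZ-HFHC levels were 19.7 to 64.4 CPM. In both STZ-HFHC mice Sorl1, Myo5a, Slamf7 and Twf2 stood higher in nuclei without such a UMI, and Napepld lower. Selplg differed in direction between these mice. Sorl1 was at 66.0 and 95.4 CPM without against 41.1 and 30.7 with it, and Myo5a at 119 and 73.1 against 64.4 and 25.3. The part of fewer UMIs in these losses was not tested. Of the 16 alternatives, Slamf7 lost its call under 7, Twf2 under 6 and Selplg and Sorl1 under 4 each. Myo5a and Napepld lost theirs under 3 each, and Gpnmb and Sirpb1b under 2 each. The tenth gene was Lpl, described with its list. Among the 191 genes, 5 were gene models without a name and were passed over for these 10. In lipid-associated-like nuclei of STZ-HFHC 1 and 2, Myo5a stood higher than in Kupffer-like nuclei, at 352 and 242 CPM. Slamf7 did so too, at 102 and 79.0 CPM. Sorl1 (27.3 and 36.9 CPM) and Napepld (7.29 and 26.3 CPM) stood lower there, on 4 to 15 UMIs. Sirpb1b, Selplg and Twf2 differed in direction between the mice, and Gfra2 and Lpl are compared below.
Of the 17 lower genes above background, the 10 with the largest difference are described. Fabp1, the fatty acid-binding protein of liver, was at 717 CPM in ND and 223 and 158 CPM in the STZ-HFHC mice, against 320.0, 238 and 146 CPM in hepatocyte-like nuclei. Ttc36 was at 149, 22.6 and 11.5 CPM, Mt1, a metal-binding metallothionein, at 183, 46.0 and 38.0 CPM, and Ddt, a tautomerase related to the cytokine MIF, at 89.1, 15.1 and 18.4 CPM. Ndufb9, a subunit of respiratory complex I, was at 97.6, 27.6 and 18.4 CPM. In the STZ-HFHC mice the Kupffer-like and hepatocyte-like levels of these 5 genes were close, the former at 0.899 to 1.72 times the latter. Adh5, Ubb, Ankrd40 and Mpzl1, each with 16 to 18 UMIs in ND, stood at 67.9 to 76.4 CPM in ND and between 20.1 and 27.6 CPM in the STZ-HFHC mice. Without nuclei that had a monocyte gene (8 of 104 in ND), Ubb turned to 14.0, 27.5 and 25.7 CPM, Ddt stood at 32.7, 14.3 and 21.4 CPM and the mean log2 ratio of Adh5 was -0.28. Without any exclusion gene ND kept only 34 nuclei with 73508 UMIs. Ubb then stood at 0, 25.9 and 39.4 CPM and Adh5 at 13.6, 14.1 and 32.2 CPM, too few ND UMIs to give a direction. Adh5, Ubb and Ddt each lost the call under 9 of the 16 alternatives, and Ndufb9 under 7. Of these 9, Mt1, Fabp1 and Ttc36 passed the rule of size also among nuclei with a Clec4f or Timd4 UMI, but not without nuclei that had a monocyte gene, where Mt1 stood at 51.4, 46.1 and 41.4 CPM and Fabp1 at 317, 244 and 171 CPM. Ttc36 still stood at 93.4 CPM in ND there, with a log2 ratio of -2.62, and Ankrd40 (-1.90) and Mpzl1 (-1.57) passed as lower. When nuclei were chosen after thinning to 1000 UMIs, with their full counts then summed, only 1 of the 17 genes still passed above background. Without STZ-HFHC 1 the count of lower genes above background was 45. The tenth was Il1b, described below.
Lists of genes by function were then read against the share of all genes that passed. Of 191 list genes found, 127 had 50 UMIs, of which 16 were higher and 8 lower, beside the 4.9% and 4.43% of all genes. Without STZ-HFHC 2 the number higher was 45. The median log2 ratio of a list is set beside the 0.14 of all genes, and the median of the same members in hepatocyte-like nuclei beside the 0.21 of all genes there, and its members are described by role.

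**Figure D4:**
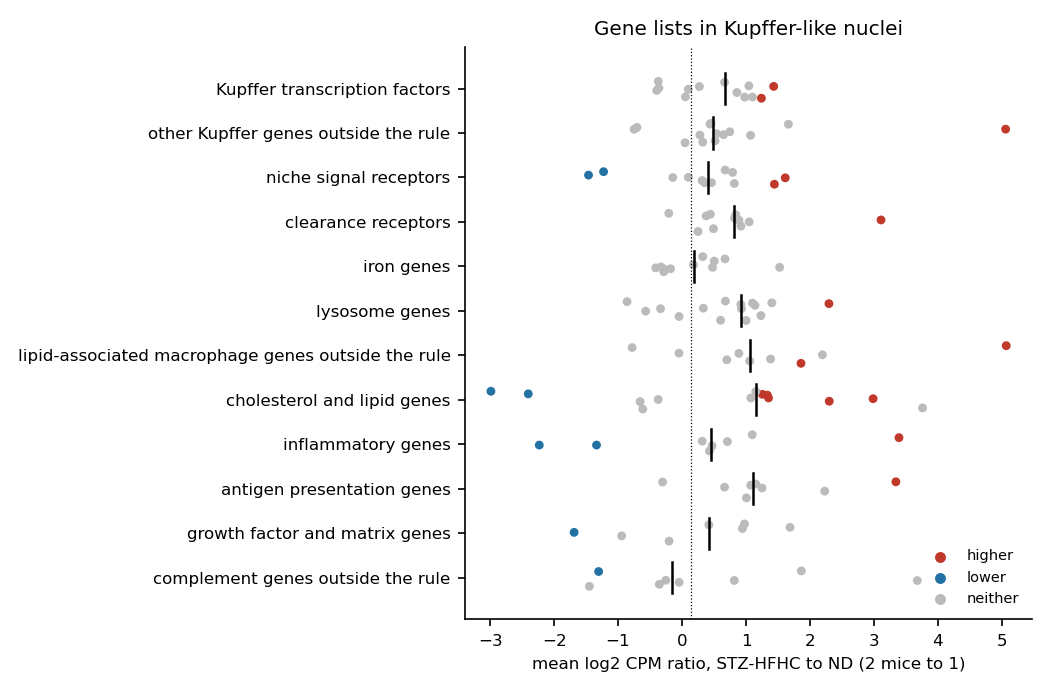
Mean log2 CPM ratio of the 2 STZ-HFHC mice to ND for list members with at least 50 UMIs (points), by list, with the median of each list (black bars) and of all genes (dotted line, 0.14). Red points are members higher and blue points members lower by the rule of size, grey points neither, and vertical jitter has no meaning.

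Of 13 transcription factors of Kupffer cells with 50 UMIs, 2 were higher, none lower, and the median was 0.67 (0.54 in hepatocyte-like nuclei). Runx1, a factor of blood cell development, was at 297 CPM in ND and 774 and 647 CPM in the STZ-HFHC mice, a log2 ratio of 1.24 ± 0.18, and did not pass under 5 of 16 alternatives, TMM and DESeq2 scaling among them. Tfec, a relative of the lysosomal regulator Tfeb found in myeloid cells, was at 76.4 CPM in ND and 243 and 184 CPM in the STZ-HFHC mice (1.43 ± 0.28). It did not pass at a marker share of 0.2% (1.14). In hepatocyte-like nuclei Runx1 stood at 16.6, 88.3 and 57.7 CPM and Tfec at 4.08, 20.6 and 13.8 CPM. Zeb2, which maintains the identity of tissue macrophages, was at 1214 CPM in ND and 2964 and 1944 CPM in the STZ-HFHC mice, below 2-fold in STZ-HFHC 2. Nr1h3, the sterol-sensing receptor LXR alpha, was at 63.7, 118 and 119.7 CPM, Maf at 352, 385 and 351 CPM and Spic, a factor for haem handling, at 34.0, 32.6 and 23.0 CPM. For Maf and Spic the 3 intervals overlapped.
Among 14 other Kupffer cell genes with 50 UMIs, only Gfra2 passed, upward, and the median was 0.49 (0.81 in hepatocyte-like nuclei). Slc40a1 and Itga9 are given above. Cd38, an ectoenzyme that consumes NAD, was at 140.1 CPM in ND and 355 and 251 CPM in the STZ-HFHC mice, and Hpgd, which inactivates prostaglandins, at 174, 304 and 249.8 CPM. The STZ-HFHC levels of Cd38 lay above the ND interval (96.4 to 197) but fell short of 2-fold in STZ-HFHC 2. Kcna2, a potassium channel, was at 17.0, 84.5 and 42.6 CPM with 4 UMIs in ND.
Receptors for niche signals lay in both directions: of 12 with 50 UMIs, 2 were higher and 2 lower, with a median of 0.41 (0.58 in hepatocyte-like nuclei). Tgfbr1, the type I receptor for TGF-beta, was at 127 CPM in ND and 416 and 298 CPM in the STZ-HFHC mice (1.45 ± 0.34), against 105, 194 and 138 CPM in hepatocyte-like nuclei. It did not pass when only nuclei with a Clec4f or Timd4 UMI were summed. Il10ra, a chain of the interleukin 10 receptor, was at 42.5 CPM in ND and 142 and 130.1 CPM in the STZ-HFHC mice (1.61 ± 0.09), against 3.23, 18.2 and 11.1 CPM. Il10ra did not pass at a marker share of 0.2% (1.31). Csf2rb (chr15:78325752-78353847), the shared beta chain of the receptors for GM-CSF, interleukin 3 and interleukin 5, was lower, at 106 CPM in ND and 38.5 and 39.1 CPM in the STZ-HFHC mice (-1.46 ± 0.02). The ND interval was 68.7 to 157 and the others lay at 28.2 to 51.3 and 27.1 to 54.7, so that ND stood apart, and hepatocyte-like nuclei held 3.0, 4.68 and 5.80 CPM. Csf2rb did not pass among nuclei with a Clec4f or Timd4 UMI or without exclusion genes, where its log2 ratio was -1.24 and -1.83. Nor did it pass after thinning (-0.71) or at a marker share of 0.05% (-0.91). Bmpr1a, a type I receptor for bone morphogenetic proteins, was at 246 CPM in ND and 102 and 109 CPM in the STZ-HFHC mice, below its level in hepatocyte-like nuclei of the STZ-HFHC mice (207 and 211). It was not above background, and it did not pass without any exclusion gene (-0.94), after thinning (-0.60) or at a marker share of 0.05% (-0.38). Csf2ra, the alpha chain that pairs with Csf2rb, was at 72.2, 97.0 and 64.5 CPM, and Bmpr2 at 166, 328 and 266 CPM, neither past the rule.
Of 11 clearance receptors with 50 UMIs, only Cd36 passed, with a list median of 0.82 (0.48 in hepatocyte-like nuclei). Cd36, a scavenger receptor for fatty acids and oxidised lipoproteins, was at 38.2 CPM in ND and 401 and 303 CPM in the STZ-HFHC mice (3.11 ± 0.29). It was at 21.9, 309 and 213 CPM in hepatocyte-like and 31.0, 364 and 243 CPM in endothelial-like nuclei, so it was not above background. Mertk, the receptor by which macrophages engulf dying cells, was at 603 CPM in ND and 1189 and 985 CPM in the STZ-HFHC mice, short of 2-fold in both mice although the ND interval (508 to 711) lay below both others. Mertk was several times its hepatocyte-like level (133, 148 and 126 CPM). It passed as higher without any exclusion gene, at 422, 1295 and 974 CPM (1.39), but not among nuclei with a Clec4f or Timd4 UMI (0.88). Axl, a receptor of the same family, was at 76.4, 189 and 116 CPM, and Mrc1, the mannose receptor, at 395, 579.6 and 458 CPM.
None of the 11 iron genes with 50 UMIs passed, with a median of 0.18 (0.28 in hepatocyte-like nuclei). Hmox1, which breaks down haem, was at 29.7 CPM in ND and 113 and 73.7 CPM in the STZ-HFHC mice, with an ND interval of 11.9 to 61.2 that overlapped that of STZ-HFHC 2. The ferritin chains Fth1 and Ftl1 differed more between the STZ-HFHC mice, at 345 and 142 and at 553 and 236 CPM, than the mean differed from ND (157 and 408). Among 15 lysosome genes, with a median of 0.92 (0.17 in hepatocyte-like nuclei), 1 was higher, though not above background, and none lower. Ctsb, which encodes cathepsin B, was at 204 CPM in ND and 554 and 372 CPM in the STZ-HFHC mice, and Mitf, a regulator of lysosomal genes, at 412 CPM in ND and 954 and 642 CPM in the STZ-HFHC mice, both below 2-fold in STZ-HFHC 2.
Lipid-associated macrophage genes outside the rule had a median of 1.06 (0.93 in hepatocyte-like nuclei), and 2 of 9 with 50 UMIs passed, both upward. Lpl (chr8:68880491-68907448), the lipase that releases fatty acids from lipoproteins, had 1 UMI in ND and was at 4.25 CPM in ND and 359.6 and 127 CPM in the STZ-HFHC mice. The ratios to ND were 84.7 (95% interval 15.1 to 3354) and 29.8 (95% interval 5.24 to 1189). After thinning, Lpl was seen in 1.30%, 28.3% and 11.8% of Kupffer-like nuclei and in 0.391%, 6.47% and 3.69% of hepatocyte-like ones, so the STZ-HFHC shares lay above background. Lgals3, a galactose-binding lectin of activated macrophages, was at 38.2 CPM in ND and 156 and 137 CPM in the STZ-HFHC mice (1.86 ± 0.13), against 2.23, 25.1 and 13.6 CPM in hepatocyte-like nuclei. Lgals3 did not pass at a marker share of 0.2% (1.08) or without any exclusion gene, at 81.6, 167 and 147 CPM (0.84). The 15 genes of the list together summed to 2127 CPM in ND and 2700 and 2124 CPM in the STZ-HFHC mice, so that their sum did not move one way. Apoe, the lipoprotein component, was at 1388, 973 and 673 CPM and did not pass. Trem2, a lipid receptor of these macrophages, had fewer than 50 UMIs, at 0, 14.2 and 10.4 CPM, and Chit1, which encodes chitinase 1, had none in any mouse.
The Kupffer-like rule barred nuclei with 2 or more lipid-associated genes, and the nuclei that it left were set beside the lipid-associated-like nuclei of the same mice. In the STZ-HFHC mice Lgals3 was at 156 and 137 CPM in Kupffer-like and 767 and 843 CPM in lipid-associated-like nuclei, and Lpl at 359.6 and 127 against 1059 and 658. Ctsb was at 554 and 372 against 1339 and 1233, and Abca1 at 1023 and 917 against 1840.3 and 1728. All 4 genes were lower in the Kupffer-like nuclei of both mice. Cd5l was at 1119 and 573 against 1434 and 801, Clec4f at 331 and 375 against 229.6 and 258, Timd4 at 139.7 and 181 against 83.8 and 94.8 and Gfra2 at 81.1 and 61.0 against 36.4 and 42.1. The last 3 stood higher in the Kupffer-like nuclei of both mice, but in STZ-HFHC 2 the intervals of the 2 classes overlapped for Clec4f and Gfra2, the latter on 8 UMIs in lipid-associated-like nuclei. The 6 markers of the label summed to 2553 and 2014 CPM in Kupffer-like and 2567 and 2096 CPM in lipid-associated-like nuclei, and all 11 to 3161 and 2464 against 3398 and 2897 CPM, so that as a set they were no higher in the former. No test was made over 2 mice. Nuclei without any of the 5 lipid-associated genes were 98.1%, 58.8% and 77.8% of the Kupffer-like nuclei. Among those alone 13 of the 16 higher list genes passed, Lpl and Lgals3 included.
Cholesterol and lipid genes held the most calls, 5 higher and 2 lower of 13 with 50 UMIs, with a median of 1.15 (1.00 in hepatocyte-like nuclei). Abcg1 (chr17:31057675-31117988), which exports cholesterol to high-density lipoprotein, was at 29.7 CPM in ND and 304 and 209 CPM in the STZ-HFHC mice (2.99 ± 0.38), against 2.77, 22.6 and 14.6 CPM in hepatocyte-like nuclei, and was the only one of the 7 above background. After thinning, Abcg1 was seen in 3.90%, 23.1% and 18.9% of Kupffer-like nuclei, against 0.293%, 3.74% and 2.59% of hepatocyte-like ones. Abca1, the exporter to lipid-free apolipoprotein, was at 403 CPM in ND and 1023 and 917 CPM in the STZ-HFHC mice (1.26 ± 0.11), against 273, 599 and 545 CPM. Abca1 did not pass by DESeq2 factors (1.07). Mylip, a ubiquitin ligase of lipoprotein uptake, was at 50.9 CPM in ND and 146 and 122 CPM in the STZ-HFHC mice (1.33 ± 0.18), against 12.9, 26.6 and 24.8 CPM in hepatocyte-like and 53.6, 81.3 and 62.3 CPM in endothelial-like nuclei. Mylip did not pass at a marker share of 0.2% (0.23), without any exclusion gene (0.94), among nuclei with a Clec4f or Timd4 UMI (1.27) or by DESeq2 factors (1.14). Srebf1, which drives fatty acid synthesis, was at 8.49 CPM in ND and 54.4 and 49.5 CPM in the STZ-HFHC mice on 2 UMIs in ND. The ratios of Srebf1 to ND were 6.40 (95% interval 1.70 to 54.0) and 5.83 (95% interval 1.52 to 49.7), and its hepatocyte-like level was 13.3, 60.4 and 71.6 CPM. Its call was lost under 4 of the 16 alternatives.
Pparg, a lipid-sensing nuclear receptor, was at 59.4 CPM in ND and 196 and 125 CPM in the STZ-HFHC mice (1.35 ± 0.45) and did not pass under 10 of 16 alternatives, among them TMM and DESeq2 scaling, a marker share of 0.2% (0.69) and nuclei with a Clec4f or Timd4 UMI (0.97). In hepatocyte-like nuclei Pparg stood at 67.8, 127 and 105 CPM. Acsl1, which activates fatty acids, was lower at 3056 CPM in ND and 338 and 439 CPM in the STZ-HFHC mice (-2.99 ± 0.27). In hepatocyte-like nuclei Acsl1 stood at 3723, 961 and 755 CPM, also with ND highest. Scd1, a fatty acid desaturase, was at 187, 627 and 281 CPM, Lpcat3, which remodels phospholipids, at 217, 157 and 129 CPM, and Soat1, which esterifies cholesterol, at 72.2, 178 and 137 CPM, none of them past the rule. Abcg1, Cd36, Lpl, Gfra2, Acsl1 and Fn1 were the 6 of 45 named calls that held under all 16 alternatives run for named genes. In 2 of the 16 a STZ-HFHC mouse was left out, where the rule has 1 condition less and no call could be lost.

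**Figure D5:**
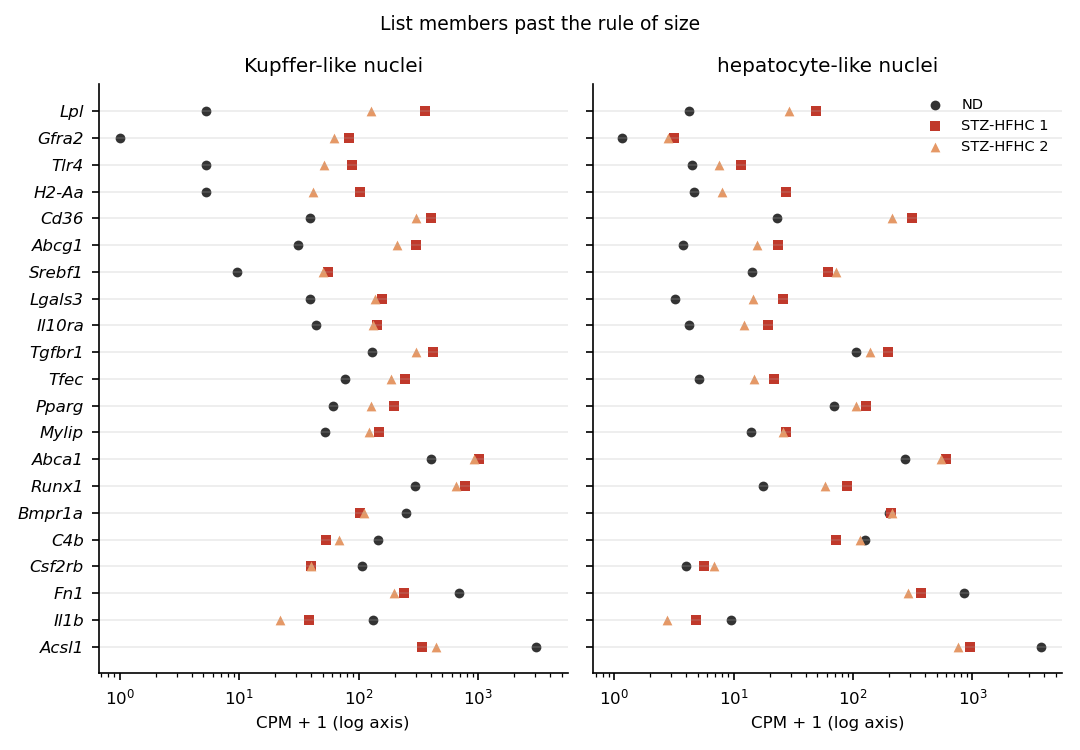
Level of 21 of the 24 list members past the rule of size in Kupffer-like (left) and hepatocyte-like (right) nuclei of each mouse, as CPM + 1 on a log axis. Abcg1, Il10ra, Runx1 and Tfec were far lower in hepatocyte-like nuclei, as was Gfra2 in the STZ-HFHC mice (in ND it was at 0 in Kupffer-like nuclei). Acsl1, Bmpr1a, Fn1 and Srebf1 lay at like levels or higher there.

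Inflammatory genes were sparse: 8 of 21 had 50 UMIs, 1 of them higher and 2 lower, with a median of 0.45 (0.38 in hepatocyte-like nuclei). Il1b (chr2:129364570-129371139), the cytokine interleukin 1 beta, was at 132 CPM in ND and 37.6 and 20.7 CPM in the STZ-HFHC mice (-2.23 ± 0.59). The interval of ND, 89.4 to 187, lay apart from 27.5 to 50.4 and 12.3 to 32.7, and hepatocyte-like nuclei held 8.54, 3.85 and 1.75 CPM. Il1b did not pass without any exclusion gene, at 68.0, 35.3 and 14.3 CPM (-1.63). After thinning, Il1b was seen in 11.7% of ND nuclei (5.49 to 21.0), 2.40% of STZ-HFHC 1 (1.32 to 3.99) and 1.96% of STZ-HFHC 2 (0.85 to 3.83). Tlr4, the receptor for bacterial lipopolysaccharide, had 1 UMI in ND and was at 4.25 CPM in ND and 87.0 and 50.6 CPM in the STZ-HFHC mice, ratios of 20.5 (95% interval 3.60 to 817) and 11.9 (95% interval 2.03 to 482). In hepatocyte-like nuclei Tlr4 was at 3.46, 10.5 and 6.54 CPM. Tlr4 did not pass at a marker share of 0.2% or without any exclusion gene, although its log2 ratio was still 3.90 and 3.53. Nfkb1, a subunit of NF-kappaB, was at 195, 329.5 and 315 CPM and did not pass. Tnf, Il6, Cxcl2, Ccl2, Ccl3, Ccl4, Ccl5, Cxcl10, Il10, Ptgs2, Cd14, Il1rn and Nos2 had too few UMIs.
Of 8 antigen presentation genes with 50 UMIs, only H2-Aa passed, with a list median of 1.11 (2.05 in hepatocyte-like nuclei). H2-Aa, an alpha chain of MHC class II, had 1 UMI in ND and was at 4.25 CPM in ND and 102 and 40.3 CPM in the STZ-HFHC mice, ratios of 24.0 (95% interval 4.23 to 957) and 9.49 (95% interval 1.59 to 385), against 3.62, 26.4 and 7.0 CPM in hepatocyte-like nuclei. The beta chains H2-Eb1 and H2-Ab1 were at 8.49, 72.8 and 33.4 CPM and 17.0, 51.9 and 27.6 CPM, and Cd74, the invariant chain, at 50.9, 169 and 81.7 CPM. In each of these genes STZ-HFHC 1 was highest and ND lowest. H2-Aa did not pass without nuclei that had a monocyte gene, at 4.67, 96.7 and 34.3 CPM, or without those that had a lipid-associated gene, at 4.34, 77.6 and 30.7 CPM, although its log2 ratios were still 3.06 and 2.93, nor under 4 further alternatives. Cd86, a costimulatory ligand, was at 284, 258 and 208 CPM with overlapping intervals of ND and each STZ-HFHC mouse.
Among 7 growth factor and matrix genes with 50 UMIs, Fn1 was lower, none were higher, and the median was 0.42 (0.15 in hepatocyte-like nuclei). Fn1, which encodes fibronectin, was at 696 CPM in ND and 239 and 196 CPM in the STZ-HFHC mice (-1.69 ± 0.20), at 849, 367 and 289.8 CPM in hepatocyte-like nuclei, which make the plasma form. Tgfb1, a fibrogenic growth factor, was at 38.2, 101 and 58.7 CPM, Pdgfc at 161, 239 and 199 CPM and Igf1 at 378, 324 and 336 CPM, none past the rule. Of 8 complement genes outside the rule, with a median of -0.15 (0.56 in hepatocyte-like nuclei), C4b was lower, at 144 CPM in ND and 51.9 and 66.8 CPM in the STZ-HFHC mice (-1.30 ± 0.26), against 125, 70.3 and 114 CPM in hepatocyte-like nuclei. C4b did not pass under 6 of the 16 alternatives, where its log2 ratio was -1.06 to -1.46. C3, the central component of the cascade, was at 309.9, 161 and 80.6 CPM. Itgam, a chain of complement receptor 3, was at 4.25, 34.3 and 15.0 CPM. The 12 genes of dividing cells were each under 50 UMIs and summed to 7, 124 and 60 UMIs, or 29.7, 104 and 69.1 CPM.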

How the data were processed

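The nuclei came from 1 ND and 2 STZ-HFHC livers. The files that the authors deposited hold whole-number UMI counts, made with Cell Ranger 7.0.1 on mm10 according to the submitters' processing notes, and are neither normalized nor corrected for free RNA. The files hold 30989 barcodes, 28336 after the study's limits of 200 to 5000 genes and 5% mitochondrial UMIs. The number of cells that the methods give after filtering equals the number of barcodes in the files before it. Totals over all barcodes were 77617520, 73942732 and 72934861 UMIs.
Nuclei were chosen by marker UMIs, with no clustering. Doublets were kept; Scrublet in Scanpy 1.11.5 gave the scores for an alternative without the highest 8%. The members, the gene lists and the rule of size were chosen with earlier results of these data known. UMIs were summed per mouse and divided by their total. Hepatocyte-like nuclei had 4 or more hepatocyte genes and at most 1 gene of each other type, and endothelial-like nuclei had 3 or more endothelial genes. Poisson and Clopper-Pearson 95% intervals were exact; both, and the floor of 3 UMIs for a count of 0, cover counting error only. The rule of size replaced a test. As alternatives, edgeR 4.0.16 (quasi-likelihood) and DESeq2 1.42.0 were run on the summed counts in R 4.3.3, with ND assumed to vary like STZ-HFHC. These and the rule were also run on simulated counts to check the code. The simulation gave ND and STZ-HFHC the same spread, so that it cannot address the spread between ND mice.
Named genes were those of the selection rule, list members past the rule of size, up to 4 further members per list with the most UMIs, and the 10 higher and 10 lower genes above background whose smaller ratio was largest, without unnamed gene models. Other members named in the text were chosen after their values were seen. Coordinates are from GENCODE M21 (GRCm38). Clec7a was not analysed here, and some list members that the rule names are not reported here.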

Additional observations from a re-analysis of the deposited data

Results flagged for a closer look

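The niche receptors Bmpr1a and Csf2rb were lower in the Kupffer-like nuclei of both STZ-HFHC mice and above ND by totals in hepatocyte-like nuclei, and the difference between the 2 cell classes was not tested. Bmpr1a had a mean log2 ratio to ND of -1.23 (SD 0.07 over the 2 STZ-HFHC mice) in Kupffer-like nuclei, against 0.04 and 0.08 in hepatocyte-like nuclei. These lay below the median of 0.21 over all genes there, so that its side of ND in hepatocyte-like nuclei rests on the scaling. Csf2rb had a mean of -1.46 (SD 0.02), against 0.65 and 0.94 in hepatocyte-like nuclei, where its level was only 3.0, 4.68 and 5.80 CPM. Bmpr1a was not above background, and it did not pass the rule of size without any exclusion gene (-0.94), after thinning (-0.60) or at a marker share of 0.05% (-0.38). Csf2rb did not pass in these 3 settings (-1.83, -0.71 and -0.91) or among nuclei with a Clec4f or Timd4 UMI (-1.24).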

How the results depend on the processing

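The mean share ratio of 4.79 ranged from 2.71 among nuclei with a Clec4f or Timd4 UMI to 5.97 after thinning to 1000 UMIs, from 3.40 to 6.18 with either STZ-HFHC mouse left out, and was reversed at 0.818 as a share of nuclei that passed the macrophage part. The settings without any exclusion gene, with a Clec4f or Timd4 UMI, without monocyte genes and without any lipid-associated gene were chosen after seeing the data. In this section thinning served only to choose the nuclei, and their full counts were summed, so that depth was not made equal. In ND it gave 90 nuclei with 384973 UMIs, against 104 with 235564 in the main setting. With a STZ-HFHC mouse left out the rule has 1 condition less, so that gene counts can only rise and no call can be lost.
The 335 higher genes became 620 after thinning, 115 and 586 at marker shares of 0.2% and 0.05%, 176 without any exclusion gene, 219 by TMM, 206 by DESeq2 factors, 505 at a ratio of 1.5, 95 at a log2 ratio of 2 and 741 with no Poisson condition. The 303 lower genes became 146 at 0.2%, 143 without any exclusion gene and 41 at a log2 ratio of 2. By adjusted p under 0.05, edgeR called 43 higher and 176 lower and DESeq2 22 and 107, with ND assumed to vary like STZ-HFHC, so that these counts are no measure of the spread between ND mice. With a mouse left out the range was 423 to 705 higher and 387 to 535 lower.
The 191 higher genes above background became 394 after thinning, 57 at 0.2%, 309 at 0.05%, 114 without any exclusion gene, 121 by DESeq2 factors, 51 at a log2 ratio of 2, 338 with no Poisson condition, 121 at 4 times the background, and 218 to 429 with a mouse left out. The 17 lower ones became 2 after thinning, 9 at 0.2%, 1 at 0.05%, 11 with 3 marker genes, 6 with Kupffer genes only, 2 without any exclusion gene, 6 with a Clec4f or Timd4 UMI, 6 without monocyte genes, 10 without any lipid-associated gene, 30 by TMM and by DESeq2 factors, 26 at 20 UMIs, 29 with no minimum, 2 at a log2 ratio of 2, 32 with no Poisson condition, 3 at 4 times the background, and 26 to 45 with a mouse left out.
The 16 higher list members became 47 after thinning, 6 at 0.2%, 34 at 0.05% and 20 to 45 with a mouse left out, and the 8 lower ones 5 without any exclusion gene and 8 to 10 with a mouse left out.
Of 45 named genes that passed, 31 were lost at 0.2%, 32 without any exclusion gene, 20 with a Clec4f or Timd4 UMI, 3 by TMM and 6 by DESeq2 factors. Direction reversed, as log2 ratios, for Adh5 (0.16) without any exclusion gene and for Reln (-0.91) after thinning. Reln is an exclusion gene and at 0 by construction without them, so that its -2.23 there is no reversal of a level. Chst11 and Gpnmb reversed to -1.55 without any lipid-associated gene, where both are at 0 by construction. Ubb reversed to 0.094 after thinning, 0.72 at 0.2%, 1.68 with Kupffer genes only, 2.30 without any exclusion gene and 0.74 without monocyte genes. Fewer nuclei are summed in most of these, and causes beyond that were not tested. Without any exclusion gene ND kept 34 nuclei with 73508 UMIs, with Ubb at 0 and Adh5 at 13.6 CPM. The reversals of Ubb and Adh5 in that setting thus rest on too few ND UMIs to give a direction. No paired analysis was possible because only 1 ND mouse was sequenced.
The ND sum of 235564 UMIs limits the comparisons of CPM with ND: its floor of 3 UMIs is 12.7 CPM.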
